A study of Homo sapiens with 24 samples.

Results

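The tripartite motif (TRIM) family was followed in HepG2 cells, a human liver carcinoma line that keeps hepatocyte traits, after treatment with the small molecule BRD8518 or the cytokine oncostatin M (OSM). Members were all genes whose symbol is TRIM followed by a digit, each read by 1 probe set, the one with the highest mean over all arrays. This gave 61 members among 14884 genes. Transcript levels came from 24 whole-transcript arrays in 8 groups of cells plated at 10000 per well and kept in 0.25% DMSO whatever the treatment. BRD8518, known here by its code name, was given at 1 uM, with 3 arrays taken after 1 h, 2 after 6 h and 3 after 24 h. The dose of the 6 h arrays is that of their own labels, while the shared protocol gives 1 uM for the other times and a dilution series for 6 h. OSM at 100 ng/mL had 3 arrays after 1 h and 3 after 24 h. DMSO alone had 3, 4 and 3 arrays after 1 h, 6 h and 24 h. The labels name no transgene or engineered deletion in the cells. Nothing in the labels says that arrays of a group came from separate cultures. The p-values thus measure how far these arrays spread, and that spread may be technical. Levels are log2 values, and a difference is that of 2 group means on the log2 scale, given with its standard error (SE). A member is said to have risen or fallen where limma's moderated test gave a Benjamini-Hochberg adjusted p under 0.05 over all 14884 genes.

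TRIM proteins share an N-terminal block of a RING finger, B-box zinc fingers and a coiled coil. The RING recruits a ubiquitin-charged E2 enzyme, so most members act as E3 ubiquitin ligases, and the C-terminal domain sets what each member binds. The family is known for transcriptional corepressors with a PHD finger and a bromodomain (TRIM24, TRIM28, TRIM33), for antiviral sensors and restriction factors (TRIM5, TRIM21, TRIM25), and for microtubule-binding members with a COS box. OSM is an interleukin-6 type cytokine that signals through gp130 and STAT3, and liver cells answer it with the acute-phase response.

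The members differed in how brightly their probe sets read. The highest mean values over all arrays belonged to TRIM28 (10.6), TRIM24 (10.6) and TRIM33 (10.1), and the lowest to TRIM43 (2.31), TRIM60 (2.48) and TRIM49 (3.20). These means depend on the probes and are no ranking of transcript amounts. For 9 members the mean lay under 4, and 0 of these 9 passed the threshold against DMSO at any time. In all, 27 of the 61 members rose or fell in at least 1 of the 5 comparisons with time-matched DMSO and 34 in none, beside 35.5% of all genes called in at least 1. Of the 10 members called more than once against DMSO in the fit of all arrays, 2 (TRIM50 and TRIM62) had calls in both directions.

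**Figure D1:**
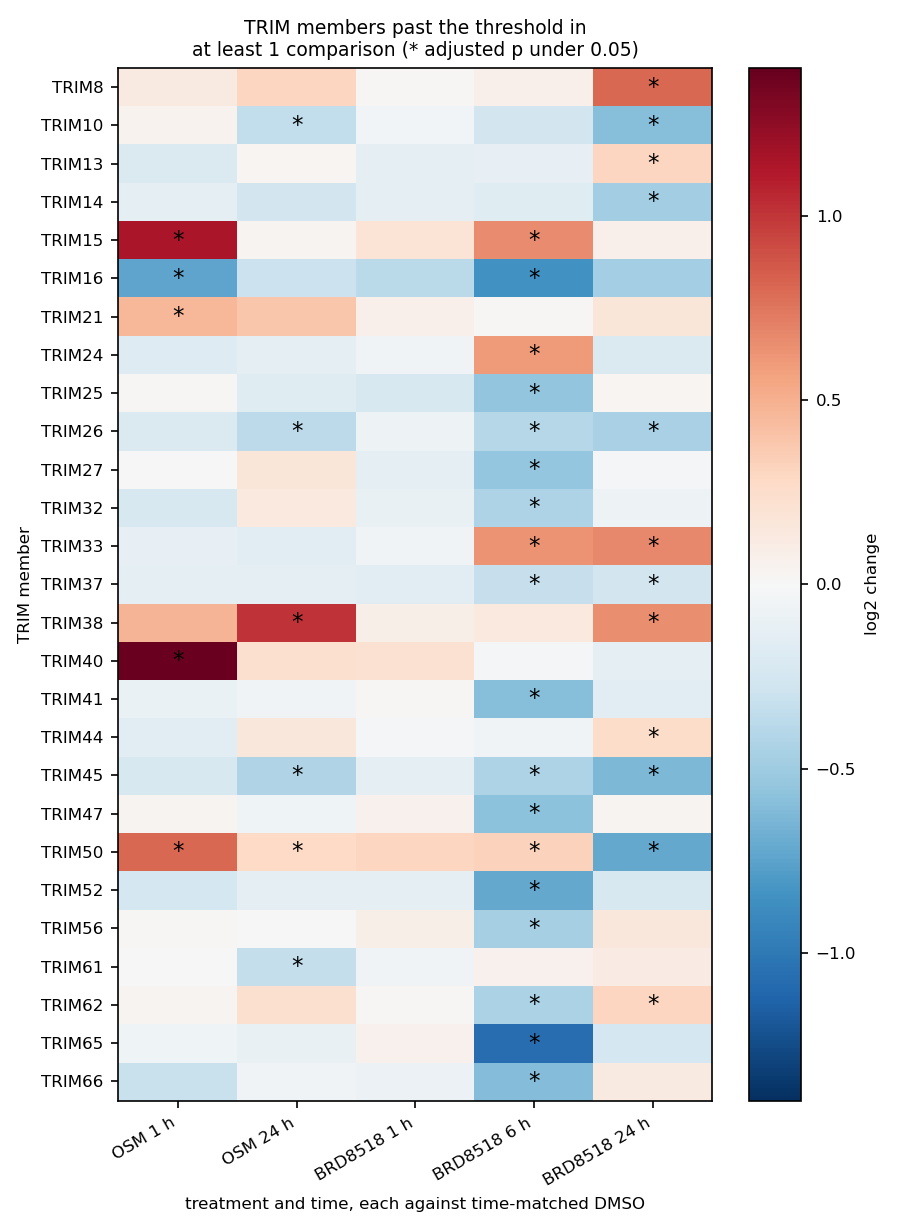
Differences from time-matched DMSO for the 27 members past the threshold in at least 1 comparison. Colour gives the log2 difference and an asterisk an adjusted p under 0.05; the OSM 1 h column is led by TRIM40 and TRIM15, and the BRD8518 6 h column holds the most calls, 4 higher and 14 lower.

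The DMSO 6 h array at position D4 (replicate 2) stood apart. Over all genes, its correlation with the mean of the other arrays of its own group was 0.978, against 0.9935 to 0.9976 for each of the other 23 arrays within their groups. It was the lowest of the 4 DMSO 6 h arrays in 19 of the 61 members and the highest in 30, and lay more than 0.5 from the mean of the other 3 in 11. TRIM38, TRIM33 and TRIM5 were lower in it (6.16, 9.25 and 5.75), while TRIM65, TRIM35 and TRIM8 were higher (8.27, 8.05 and 9.50). Since all 24 arrays share 1 estimate of each gene's spread, D4 bears on every comparison, and calls are given with and without it. The letter of the position code lay on all 6 h arrays as D, and on all 24 h arrays as A except DMSO replicate 3, so time and letter cannot be told apart. Of 12 hepatocyte-type markers 11 were measured, with means from 6.94 to 12.5 (albumin 12.3), and of 15 markers of blood, vessel, stroma, bile duct and macrophage 6 were, with means from 3.73 (CD163) to 9.81 (CD68).

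After 1 h of OSM, 4 members rose and 1 fell. TRIM40, a gut-enriched member that restrains NF-kB signalling, and TRIM15, a focal adhesion protein, rose 2.61-fold and 2.21-fold. TRIM50, a gastric member tied to aggresomes, rose 1.75-fold. TRIM21, the cytosolic antibody receptor, rose by a smaller margin, and TRIM16, a member without a RING finger, fell. The share of members called was 8.2% (5 of 61), beside 2.84% of all genes, 2.03% higher and 0.813% lower. The median difference was 0.018 over the members and 0.0066 over all genes.

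TRIM40 read 7.01, 7.02 and 6.90 in the OSM arrays and 5.41, 5.83 and 5.54 in the DMSO arrays, a difference of 1.38 ± 0.09 (SE; adjusted p = 2.37e-10). TRIM15 read 9.18, 9.28 and 9.30 against 8.18, 8.13 and 8.02 (1.14 ± 0.07, adjusted p = 2.37e-10). TRIM50 read 6.78, 6.90 and 6.63 against 5.98, 5.88 and 6.01 (0.81 ± 0.09, adjusted p = 1.98e-06). In all 3 genes every OSM array lay above every DMSO array by more than the spread within either group. They were picked by a test on these same arrays, so this adds no support. TRIM21 read 6.20, 6.13 and 6.00 against 5.73, 5.48 and 5.72 (0.47 ± 0.12, adjusted p = 0.0416). TRIM16 read 5.27, 5.02 and 5.29 against 6.17, 5.93 and 5.68 (-0.74 ± 0.18, adjusted p = 0.0286). The groups did not overlap in TRIM21 and TRIM16 either, which adds no support for the same reason, and both calls were fragile. The TRIM21 call ended when any 1 of the 6 arrays was dropped (0.39 to 0.52), and that of TRIM16 when any OSM array or DMSO replicate 1 or 2 was dropped (-0.78 to -0.61).

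Without D4 the count at 1 h of OSM was 8, 6 higher and 2 lower, beside 5.42% of all genes, and all 5 calls above were kept. The 3 added were TRIM38 (0.47 ± 0.07), a regulator of TAB2 and TAB3 turnover, TRIM35 (0.28 ± 0.08) and TRIM13 (-0.20 ± 0.05), an endoplasmic reticulum member. TRIM38 read 7.68, 7.74 and 7.69 in the OSM arrays and 7.24, 7.17 and 7.27 in the DMSO arrays, with no overlap, and its adjusted p was 0.18 in the fit with D4. All OSM 1 h and DMSO 1 h arrays carry the letter B, so these values are within 1 letter. At 1 h, 1 of 11 hepatocyte-type markers (FGB) rose, with a mean marker level of 11.06 to 11.08 against 10.86 to 10.94 with DMSO, and 0 of 6 markers of other types were called. Their part in the result was not tested.

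TRIM40 and TRIM15 lie close together, with TRIM10 between them, in the class I histocompatibility region of chromosome 6. There TRIM31, TRIM40, TRIM10, TRIM15 and TRIM26 follow each other as consecutive protein-coding genes. The array holds several probe sets for 4 of these 5, some of which gave the same values, so they are not independent readings. Over its 8 probe sets TRIM40 differed by 1.28 to 1.80 after 1 h of OSM, and over its 8 TRIM15 differed by 1.11 to 1.19. The others of these 5 genes did not share the rise. TRIM31 differed by 0.06 to 0.18 over 5 probe sets and TRIM10, which overlaps TRIM15 on the genome, by 0.05 to 0.12 over 8, and the difference for TRIM26 was -0.21 ± 0.07 (adjusted p = 0.20).

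The start-site windows of the 3 members with the largest rise after 1 h of OSM are shown because the cytokine acts through STAT factors. Each holds 250 bases before and 50 after a RefSeq start site on GRCh38.p14, written 5′ to 3′ on the gene's strand, and TRIM40 has 2 annotated windows. Capitals mark the STAT half-site pair TTCNNNGAA, which reads alike on both strands.
TRIM40, chr6:30135890-30136189, plus strand: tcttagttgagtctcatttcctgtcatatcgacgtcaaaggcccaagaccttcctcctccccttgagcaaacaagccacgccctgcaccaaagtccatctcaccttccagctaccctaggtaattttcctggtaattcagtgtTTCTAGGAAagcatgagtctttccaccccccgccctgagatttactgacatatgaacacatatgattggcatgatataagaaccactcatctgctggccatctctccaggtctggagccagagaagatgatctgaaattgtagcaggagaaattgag
TRIM40, chr6:30136483-30136782, plus strand: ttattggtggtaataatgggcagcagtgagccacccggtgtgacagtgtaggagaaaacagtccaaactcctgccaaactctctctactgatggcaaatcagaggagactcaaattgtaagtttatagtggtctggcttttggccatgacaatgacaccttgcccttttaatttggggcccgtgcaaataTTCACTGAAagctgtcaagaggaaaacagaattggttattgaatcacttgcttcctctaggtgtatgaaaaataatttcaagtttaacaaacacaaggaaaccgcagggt
TRIM15, chr6:30163296-30163595, plus strand: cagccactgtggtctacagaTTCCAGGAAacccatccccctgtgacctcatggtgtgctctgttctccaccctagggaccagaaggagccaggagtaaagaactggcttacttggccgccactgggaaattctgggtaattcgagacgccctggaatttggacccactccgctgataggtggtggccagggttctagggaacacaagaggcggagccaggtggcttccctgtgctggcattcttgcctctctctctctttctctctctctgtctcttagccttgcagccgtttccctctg
TRIM50, chr7:73325526-73325825, minus strand: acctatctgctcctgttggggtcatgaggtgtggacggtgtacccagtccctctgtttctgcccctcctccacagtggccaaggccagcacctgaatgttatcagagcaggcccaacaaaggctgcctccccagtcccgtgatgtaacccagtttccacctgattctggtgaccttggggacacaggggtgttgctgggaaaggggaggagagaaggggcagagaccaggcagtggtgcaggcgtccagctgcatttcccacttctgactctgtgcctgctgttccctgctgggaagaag
The match began at position -107 in one TRIM40 window and at -60 in the other, and at -230 in the TRIM15 window, counted from the start site. The TRIM50 window did not hold these letters. The motif was in 7.66% of 35116 RefSeq windows and in 14 of the 62 windows of members (22.6%), which belonged to 11 of the 46 members with a window, among them TRIM16, which fell. Some of these windows are not independent, as with the copies TRIM49 and TRIM49B and TRIM64 and TRIM64B. The core of the interferon-stimulated response element, GAAA repeated after any 2 bases, was in 3.57% of all windows and in 9 of the 62, from 9 members including TRIM21, TRIM5, TRIM14 and TRIM26. The AP-1 motif TGANTCA was in 7.71% and in 10 of the 62 (TRIM40 among them, in the window starting at 30136483), and the EGR motif GCGTGGGCG in 0.795% and in 0 of the 62, each on either strand. A match of letters is a description and does not show binding.

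**Figure D2:**
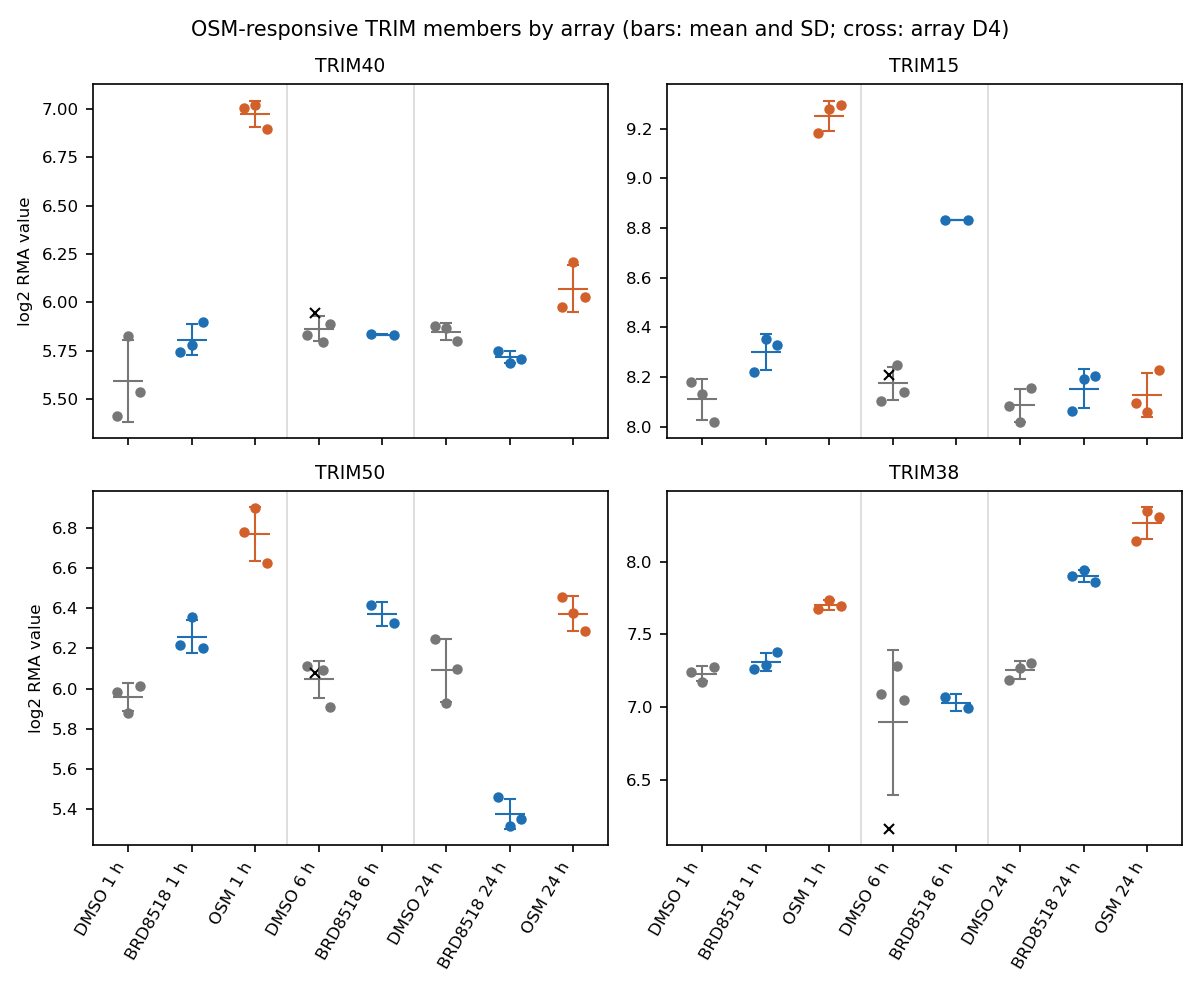
Log2 values of TRIM40, TRIM15, TRIM50 and TRIM38 by array (points), with group mean and SD (bars) and a cross for array D4, over the 8 groups. TRIM40, TRIM15 and TRIM50 are highest after 1 h of OSM, and TRIM38 after 24 h of OSM, where it reads 8.14 to 8.35.

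After 24 h of OSM, 2 members rose and 4 fell. TRIM38 rose 2.02-fold and led the family, TRIM50 was still higher, and TRIM45, TRIM26, TRIM10 and TRIM61 fell. TRIM15 differed by 0.04 ± 0.07 (adjusted p = 0.85). TRIM40 differed by 0.22 ± 0.09 (adjusted p = 0.14), which was the lowest of its 8 probe sets (0.22 to 0.46), and it was called higher by the mean of the 8 (0.37 ± 0.08, adjusted p = 0.00412). These 6 calls were 9.84% of members, beside 10.3% of all genes (4.6% higher and 5.65% lower), so it was near the background.

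TRIM38 read 8.14, 8.35 and 8.31 in the OSM arrays and 7.19, 7.27 and 7.30 in the DMSO arrays (1.01 ± 0.17, adjusted p = 1.86e-04), far apart beside the spread in either group. TRIM50 read 6.46, 6.38 and 6.28 against 6.25, 5.93 and 6.10 (0.28 ± 0.09, adjusted p = 0.0481). This last call was the weakest, and it was lost in 9 of 15 alternatives (0.20 to 0.33). TRIM26, a member that regulates interferon induction, read 7.63, 7.86 and 7.74 against 8.0, 8.08 and 8.24 (-0.37 ± 0.07, adjusted p = 0.00178). TRIM45, which carries a filamin-type domain, read 5.33, 5.31 and 5.37 against 5.69, 5.68 and 5.89 (-0.42 ± 0.11, adjusted p = 0.0198). TRIM10, an erythroid member, read 5.64, 5.56 and 5.54 against 6.07, 5.82 and 5.89 (-0.35 ± 0.09, adjusted p = 0.0163). TRIM61 read 5.76, 5.76 and 5.71 against 6.02, 6.18 and 6.01 (-0.33 ± 0.08, adjusted p = 0.00794). All 4 had OSM arrays below every DMSO array, but they were picked by a test on these same arrays, so this adds no support. Leaving out 1 array ended the calls of TRIM45 (without OSM replicate 1 or 2 or DMSO replicate 3, -0.41 to -0.35), TRIM10 (without OSM replicate 2 or 3 or DMSO replicate 1, -0.34 to -0.28) and TRIM61 (without DMSO replicate 2, -0.28), while TRIM26 and TRIM38 kept theirs.

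Without D4, 12 members were called at 24 h of OSM, 6 each way, beside 17% of all genes. Those added were TRIM8 (0.30 ± 0.05), which binds SOCS1 and acts on STAT3 signalling, TRIM21 (0.39 ± 0.10), TRIM29 (0.45 ± 0.14) and TRIM27 (0.17 ± 0.05) as higher, and TRIM14 (-0.26 ± 0.07) and TRIM25 (-0.17 ± 0.05) as lower. TRIM21 read 6.31, 6.00 and 6.09 in these arrays and 5.85, 5.68 and 5.69 with DMSO, just missing the threshold with D4 kept (0.39 ± 0.12, adjusted p = 0.0501). Within letter A, without DMSO replicate 3, the count was 5, 1 higher and 4 lower, and with the letter as a random block it was 7. Markers moved too. At 24 h of OSM, 2 of 11 hepatocyte-type markers rose and 4 fell, with a mean marker level of 10.89 to 10.93 with OSM and 10.87 to 10.96 with DMSO, and CD68 rose and PECAM1 fell among 6 markers of other types. Their part in the result was not tested.

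The OSM effect at the 2 times was then compared directly. The effect was lower at 24 h than at 1 h for TRIM40 (-1.16 ± 0.13, adjusted p = 2.74e-06), TRIM15 (-1.10 ± 0.10, adjusted p = 4.26e-07) and TRIM50 (-0.53 ± 0.13, adjusted p = 0.0184), and higher for 0 members. These 3 of 61 stood beside 3.37% of all genes, 1.27% higher and 2.1% lower. Without D4 there were 6, beside 7.39%, with TRIM38 (0.54 ± 0.10) and TRIM44 (0.32 ± 0.10) higher and TRIM35 (-0.41 ± 0.11) lower. The TRIM50 difference lost its call without OSM 24 h replicate 3, DMSO 24 h replicate 1, OSM 1 h replicate 2 or DMSO 1 h replicate 2 (-0.49 to -0.45).

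After 1 h of BRD8518, 0 members passed in limma's test, beside 0.255% of all genes (0.222% higher and 0.0336% lower), and 7 members had an unadjusted p under 0.05. Without D4 the count was still 0, beside 0.511%. BRD8518 1 h replicate 1 carries the letter B and replicates 2 and 3 the letter C, while all DMSO 1 h and OSM 1 h arrays carry B. Treatment and letter are thus partly tied in the BRD8518 comparisons at 1 h. The 3 members that led after 1 h of OSM differed by 0.30 ± 0.09 for TRIM50 (adjusted p = 0.40), 0.21 ± 0.09 for TRIM40 (adjusted p = 0.87) and 0.19 ± 0.07 for TRIM15 (adjusted p = 0.80). The TRIM40 value was the highest of its 8 probe sets (0.02 to 0.21), whose mean gave 0.09 ± 0.08. TRIM50 read 6.22, 6.36 and 6.20 with BRD8518 against 5.98, 5.88 and 6.01 with DMSO. TRIM15 read 8.22, 8.35 and 8.33 against 8.18, 8.13 and 8.02. TRIM42, with a mean under 4, read 3.96, 3.87 and 3.82 against 3.47, 3.32 and 3.44 and was not called either. TRIM25, the RIG-I ubiquitin ligase, read 9.47, 9.62 and 9.46 against 9.74, 9.75 and 9.74 (-0.23 ± 0.06, adjusted p = 0.31), and with array weights it was the only member called (-0.24, adjusted p = 0.0381).

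At 6 h of BRD8518, 4 members rose and 14 fell. Thus 29.5% of the members were called, beside 14.5% of all genes (5.62% higher and 8.86% lower). The median difference was -0.083 over the 61 members and -0.011 over all genes. The falls took in TRIM65, which ubiquitinates the RNA sensor MDA5, TRIM25, TRIM56 of the cGAS-STING pathway, TRIM27, TRIM41 and TRIM47. TRIM15, TRIM33, TRIM24 and TRIM50 rose. A further 43 members did not pass, and without D4 the count was 24, 6 higher and 18 lower, beside 22.5% of all genes, with all 18 calls kept.

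TRIM65 read 6.32 and 6.46 with BRD8518 and 7.28, 8.27 (D4), 7.12 and 7.18 with DMSO. The difference of -1.07 ± 0.20 (adjusted p = 5.28e-04) leaned on D4, and without it was -0.80 ± 0.10 (adjusted p = 2.76e-06). TRIM25 read 9.13 and 9.20 against 9.73, 9.68, 9.74 and 9.73 (-0.56 ± 0.07, adjusted p = 3.96e-06), the smallest adjusted p among the falls. TRIM41 read 6.12 and 6.04 against 6.64, 6.71, 6.72 and 6.64 (-0.59 ± 0.08, adjusted p = 2.14e-05). In TRIM41 D4 lay within the range of the other DMSO arrays, and in TRIM25 it was the lowest DMSO array and still far above the treated ones. TRIM47 read 7.99 and 7.82 against 8.48, 8.70, 8.40 and 8.34 (-0.57 ± 0.09), and TRIM27, a partner of MAGE-L2 in endosomal sorting, read 9.14 and 9.12 against 9.62, 9.92, 9.54 and 9.61 (-0.54 ± 0.08). TRIM56 read 6.74 and 6.67 against 7.04, 7.28, 7.24 and 7.12 (-0.47 ± 0.10). TRIM16 read 4.89 and 4.72 against 5.68, 5.13, 6.06 and 5.72 (-0.84 ± 0.20), and TRIM52 read 5.52 and 5.38 against 6.21, 5.82, 6.47 and 6.14 (-0.71 ± 0.16). D4 was the lowest DMSO array in both, so both differences were larger without it (-1.02 ± 0.17 and -0.82 ± 0.15).

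The remaining falls at 6 h were TRIM66 (-0.60 ± 0.10), TRIM62 (-0.44 ± 0.10), TRIM45 (-0.44 ± 0.12), TRIM32 (-0.44 ± 0.13), TRIM26 (-0.39 ± 0.08) and TRIM37 (-0.32 ± 0.08), a centrosomal member mutated in mulibrey nanism. TRIM32, an NHL-repeat member linked to limb-girdle muscular dystrophy, read 6.79 and 6.61 with BRD8518 and overlapped the DMSO arrays only through D4 (6.75). The other DMSO arrays of TRIM32 read 7.09 to 7.40. Among the rises, TRIM15 read 8.83 in both BRD8518 arrays and 8.10, 8.21, 8.25 and 8.14 with DMSO (0.66 ± 0.08, adjusted p = 2.44e-06). Its 8 probe sets gave 0.66 to 0.74. TRIM40, which lies near TRIM15 with TRIM10 between them, differed by -0.03 ± 0.09 (adjusted p = 0.90). Both had risen after 1 h of OSM, and only TRIM15 did so here. TRIM50 read 6.41 and 6.33 against 6.11, 6.08, 6.09 and 5.91 (0.32 ± 0.10, adjusted p = 0.0224).

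With 2 arrays of BRD8518, the 6 h calls leaned on the spread pooled over all groups. A fit of the 2 groups alone kept TRIM15, TRIM25, TRIM41 and TRIM66, and 14 calls were lost. Leaving out 1 array ended the calls of TRIM16, TRIM37, TRIM45 and TRIM52 (without BRD8518 replicate 2, -0.76, -0.26, -0.24 and -0.64), TRIM62 and TRIM24 (without BRD8518 replicate 1, -0.29 and 0.54), TRIM33 (without either, 0.61 and 0.65), TRIM50 (0.28 to 0.37, without either or without DMSO replicate 4) and TRIM32 (-0.52 to -0.35, without either or without DMSO replicate 1 or 3). The members added without D4 were TRIM5 (-0.55 ± 0.08), which binds retroviral capsids, TRIM2 (-0.37 ± 0.13), TRIM4 (-0.35 ± 0.09) and TRIM14 (-0.22 ± 0.08) as lower, and TRIM36 (0.27 ± 0.08) and TRIM8 (0.25 ± 0.06) as higher. TRIM5 read 6.13 and 6.03 with BRD8518 and 6.61, 6.68 and 6.58 in the 3 other DMSO arrays, below which D4 stood at 5.75. At 6 h, 2 of 11 hepatocyte-type markers fell (APOA1 and TF) and CD68 rose, and the part of these in the result was not tested.

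**Figure D3:**
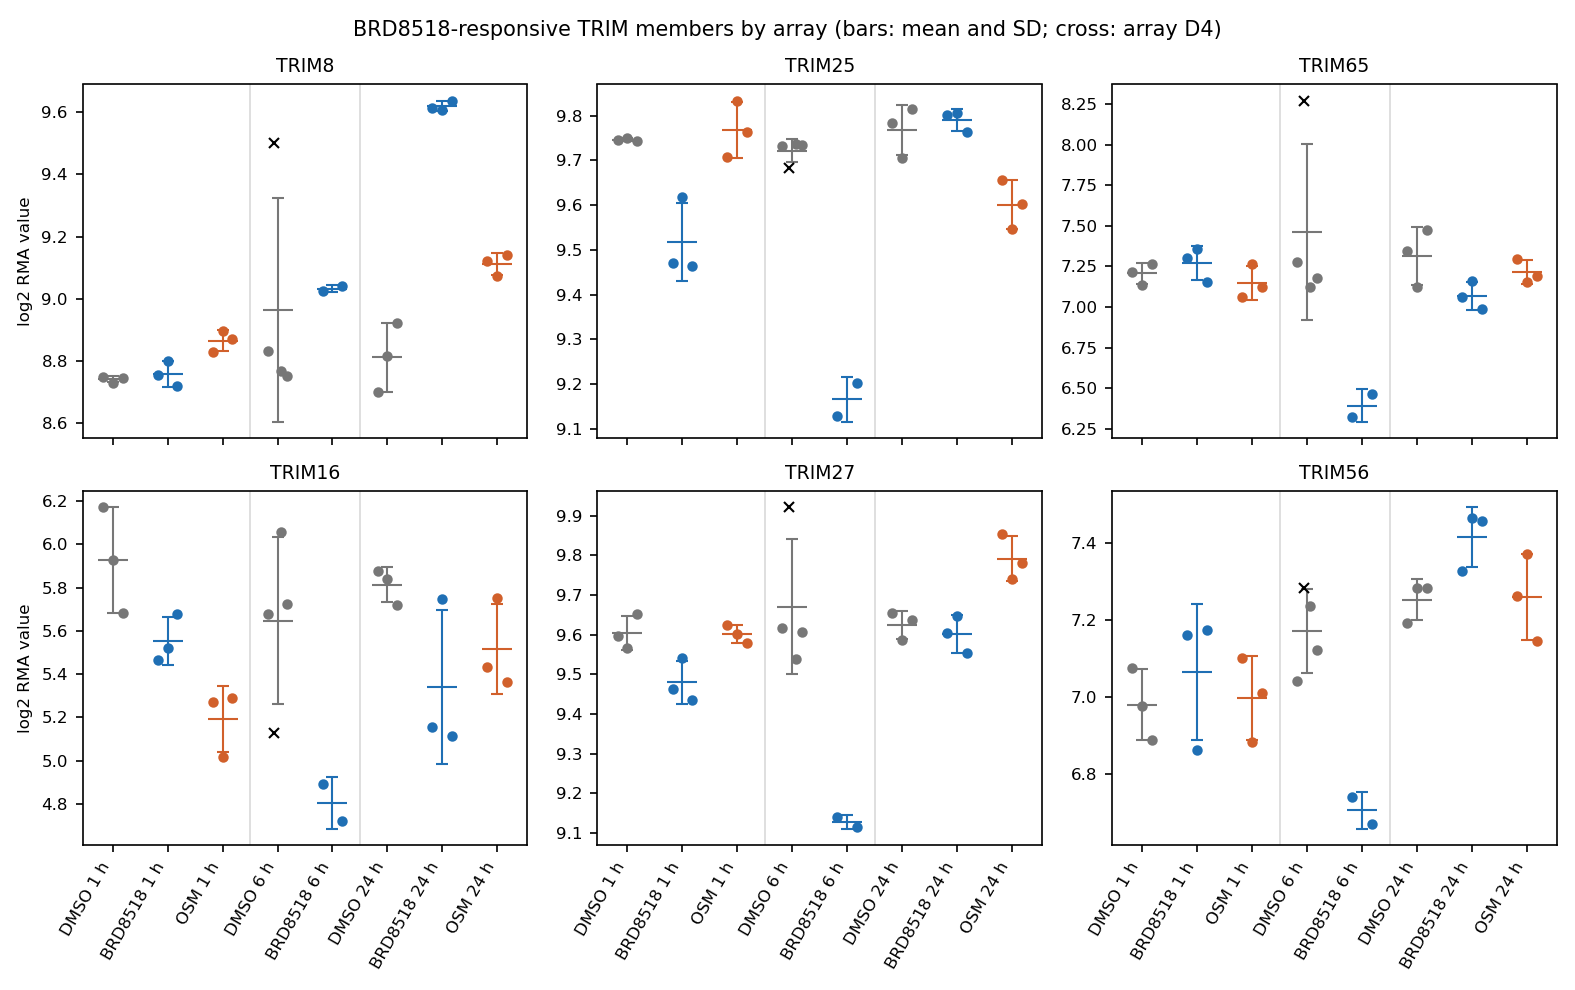
Log2 values of TRIM8, TRIM25, TRIM65, TRIM16, TRIM27 and TRIM56 by array (points), with group mean and SD (bars) and a cross for array D4. TRIM25, TRIM65, TRIM16, TRIM27 and TRIM56 are lowest after 6 h of BRD8518, and TRIM8 is highest after 24 h, where its 3 arrays read 9.61 to 9.64.

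By 24 h of BRD8518 most of the 6 h falls were no longer called, and other members had changed. TRIM8, TRIM33, TRIM38, TRIM13, TRIM62 and TRIM44 rose, and TRIM50, TRIM45, TRIM10, TRIM14, TRIM26 and TRIM37 fell. The 12 calls, 19.7% of the members, stood beside 27.7% of all genes (12.1% higher and 15.6% lower). The median difference was -0.034 over the members and -0.0049 over all genes.

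TRIM8 read 9.62, 9.61 and 9.64 with BRD8518 and 8.70, 8.82 and 8.92 with DMSO, a 1.75-fold rise (0.81 ± 0.13, adjusted p = 2.87e-05). TRIM38 read 7.90, 7.94 and 7.87 against 7.19, 7.27 and 7.30 (0.65 ± 0.17, adjusted p = 0.00456). Both sets of treated arrays were closer together than to any DMSO array. TRIM50 read 5.46, 5.32 and 5.35 against 6.25, 5.93 and 6.10 (-0.71 ± 0.09, adjusted p = 1.48e-06), turning from its 6 h rise to a fall. TRIM45 read 4.99, 5.20 and 5.17 against 5.69, 5.68 and 5.89 (-0.63 ± 0.11), and TRIM10 read 5.12, 5.53 and 5.36 against 6.07, 5.82 and 5.89 (-0.59 ± 0.09). Over its 8 probe sets TRIM10 differed by -0.61 to -0.55. TRIM14, which has no RING finger and acts as an adaptor at MAVS, read 6.80, 6.80 and 6.62 against 7.30, 7.24 and 7.14 (-0.49 ± 0.08). TRIM26 read 7.66, 7.64 and 7.67 against 8.0, 8.08 and 8.24 (-0.45 ± 0.07). Smaller rises were those of TRIM13 (0.31 ± 0.06), TRIM62 (0.30 ± 0.09) and TRIM44 (0.26 ± 0.08), a member without a RING finger, and the smallest fall that of TRIM37 (-0.25 ± 0.07). The last call was lost without DMSO replicate 2 (-0.21), that of TRIM62 without BRD8518 replicate 3 (0.24), and that of TRIM44 without BRD8518 replicate 1 or DMSO replicate 1 (0.23 each).

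Without D4, 18 members were called at 24 h of BRD8518, 8 higher and 10 lower, beside 35.7% of all genes. TRIM4 (0.32 ± 0.08) and TRIM36 (0.21 ± 0.07) joined the rises, and TRIM16 (-0.47 ± 0.15), TRIM5 (-0.38 ± 0.07), TRIM65 (-0.25 ± 0.09) and TRIM24 (-0.20 ± 0.05) the falls. TRIM5 read 6.12, 6.08 and 6.24 against 6.56, 6.59 and 6.44, with no overlap, and its adjusted p with D4 kept was 0.072. Within letter A the count was 12, 6 each way, as with the letter as a random block. At 24 h of BRD8518, 5 of 11 hepatocyte-type markers fell (AFP, APOA1, FGB, TF and TTR) and KRT18 rose, with a mean marker level of 10.67 to 10.74 against 10.87 to 10.96 with DMSO. Of 6 markers of other types, CD68 and KRT19 rose, and their mean level was 6.34 to 6.48 against 6.09 to 6.18. The part of these shifts in the result was not tested.

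The difference between the BRD8518 effects at 24 h and 6 h was called for 12 members, 9 higher and 3 lower, beside 11.1% of all genes (5.96% higher and 5.12% lower). TRIM62 (0.74 ± 0.13), TRIM8 (0.74 ± 0.18), TRIM66 (0.73 ± 0.14), TRIM56 (0.63 ± 0.14) and TRIM47 (0.61 ± 0.12) led the first set, with TRIM25 (0.58 ± 0.09), TRIM27 (0.52 ± 0.12), TRIM41 (0.43 ± 0.11) and TRIM13 (0.43 ± 0.09). All but TRIM8 and TRIM13 had fallen at 6 h. TRIM50 (-1.04 ± 0.13), TRIM24 (-0.80 ± 0.19) and TRIM15 (-0.59 ± 0.11) were lower, and all 3 had risen at 6 h. TRIM41 lost its call without BRD8518 6 h replicate 2 (0.39), and TRIM8, TRIM24 and TRIM27 lost theirs in a fit of the 4 groups alone. Without D4 the count was 18, 15 higher and 3 lower, beside 18.4%, and TRIM38 (0.76 ± 0.10), TRIM4 (0.66 ± 0.12), TRIM52 (0.60 ± 0.20), TRIM65 (0.55 ± 0.13), TRIM32 (0.49 ± 0.13) and TRIM33 (0.27 ± 0.09) were added. Both effects at 6 h share letter D and those at 24 h mostly letter A, so a shift of letter with time cannot be told apart from time.

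**Figure D4:**
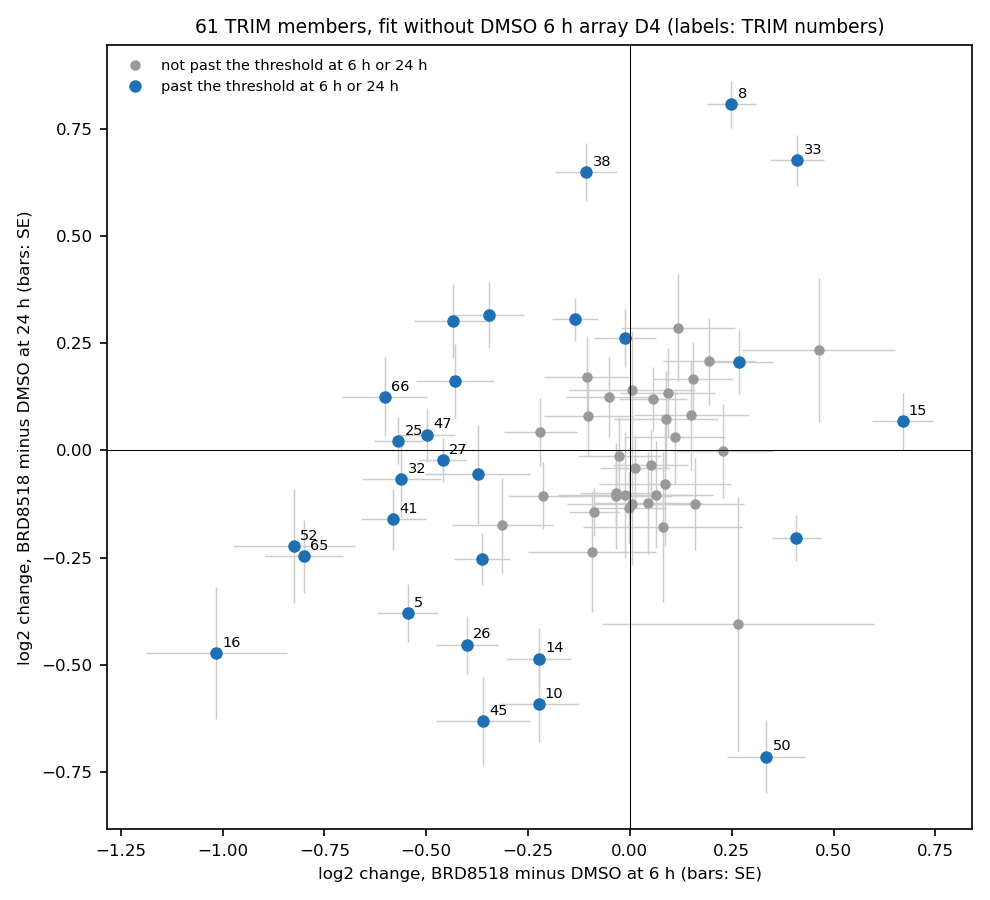
Each of the 61 members by its BRD8518 difference at 6 h (horizontal) and 24 h (vertical), both in log2 with SE bars, from the fit without D4. Coloured points passed at either time and grey points at neither; TRIM8 and TRIM33 lie above 0 at both times, TRIM50 and TRIM24 lie right of 0 at 6 h and below 0 at 24 h, and TRIM25, TRIM47 and TRIM27 lie left of 0 at 6 h and near 0 at 24 h.

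Between 1 h and 24 h, the BRD8518 effect differed for 8 members, 3 higher and 5 lower, beside 17.5% of all genes (7.24% higher and 10.3% lower). TRIM8 (0.79 ± 0.18), TRIM33 (0.72 ± 0.21) and TRIM13 (0.43 ± 0.09) were higher, and TRIM50 (-1.01 ± 0.13), TRIM10 (-0.55 ± 0.13), TRIM45 (-0.49 ± 0.16), TRIM26 (-0.38 ± 0.11) and TRIM14 (-0.35 ± 0.12) were lower. Without D4 there were 14, beside 26%, with TRIM38, TRIM25, TRIM44, TRIM5, TRIM40 and TRIM42 added. TRIM33 lost its call without DMSO 24 h replicate 3 (0.66), and TRIM45 (-0.52 to -0.42) and TRIM14 (-0.37 to -0.29) lost theirs when any of several single arrays was left out, in each case including every BRD8518 1 h array.

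The corepressor group with a PHD finger and a bromodomain was measured in full, 4 of 4 members. TRIM28, the KAP1 scaffold that KRAB zinc-finger proteins recruit, passed in 0 of the 5 comparisons with DMSO, with differences from -0.19 ± 0.10 (6 h of BRD8518, adjusted p = 0.22) to -0.01 ± 0.09 (1 h of BRD8518). It read 10.52 to 10.55 after 24 h of BRD8518 and 10.59 to 10.78 in the matched DMSO arrays. TRIM33, a ligase of the SMAD4 pathway, rose with BRD8518 at both later times. At 24 h it read 10.69, 10.69 and 10.76 against 10.02, 10.16 and 9.91 (0.68 ± 0.15, adjusted p = 0.00123). At 6 h it read 10.55 and 10.51 against 10.12, 9.25 (D4), 10.13 and 10.11 (0.63 ± 0.16, adjusted p = 0.00795), and without D4 the difference was 0.41 ± 0.07 (adjusted p = 9.7e-05). The rise was called at 6 h with and without D4, smaller without it, and the groups did not overlap at either time.

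TRIM24, a nuclear receptor cofactor and p53 ligase, rose at 6 h of BRD8518 and not at 24 h. It read 11.13 and 11.02 at 6 h against 10.64, 9.94 (D4), 10.70 and 10.66 (0.59 ± 0.14, and 0.41 ± 0.06 without D4). At 24 h it read 10.36, 10.48 and 10.47 against 10.61, 10.71 and 10.61 (-0.20 ± 0.13, adjusted p = 0.29), lower than every DMSO array. TRIM66, a testis-rich member that binds HP1 proteins, read 5.75 and 5.84 at 6 h against 6.35, 6.40, 6.54 and 6.30, and 6.35, 6.39 and 6.44 at 24 h against 6.19, 6.27 and 6.36 (0.12 ± 0.10, adjusted p = 0.40). TRIM24 and TRIM66 thus moved in opposite directions at 6 h. In the OSM comparisons 0 of these 4 members were called at 1 h or 24 h.

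**Figure D5:**
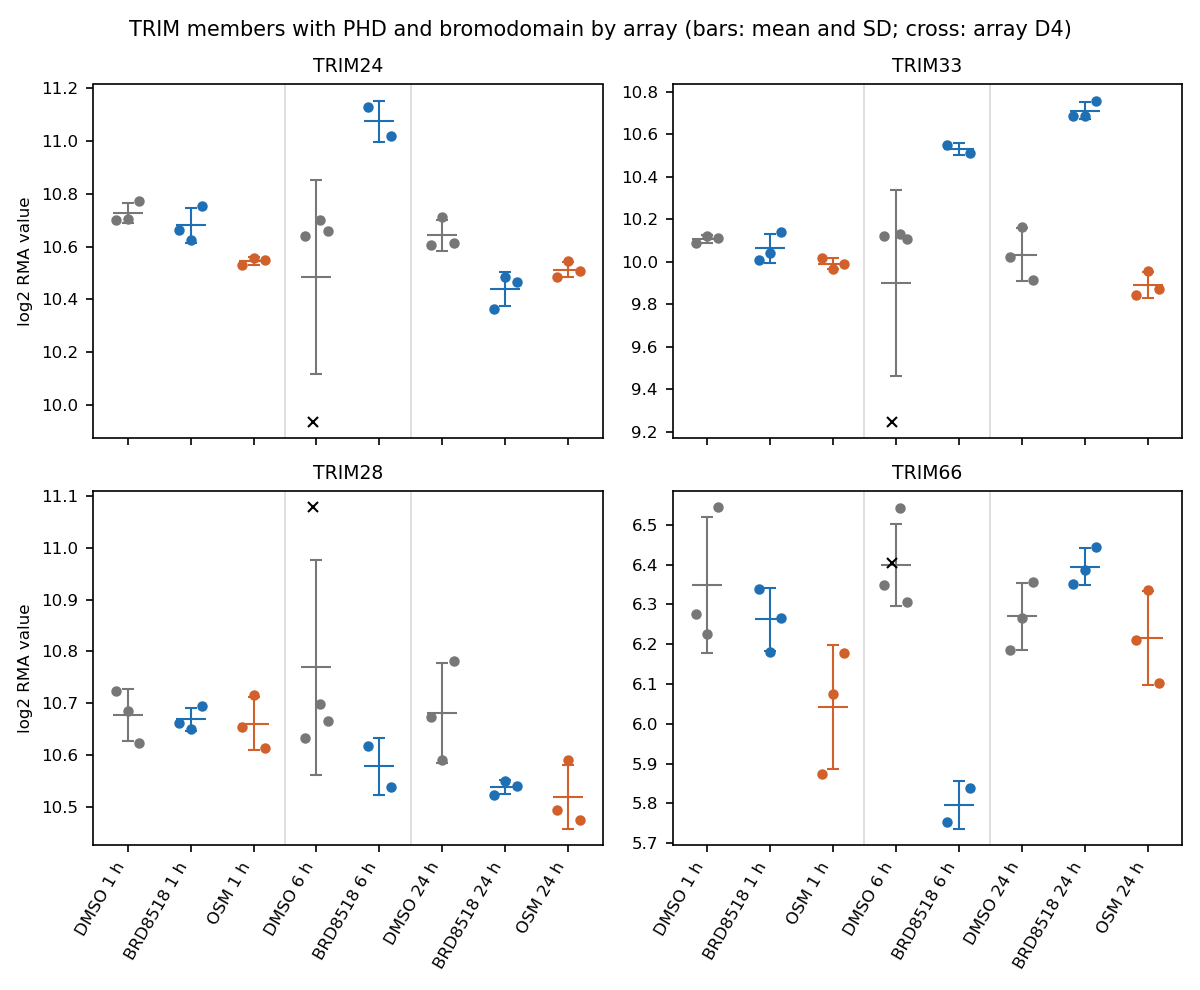
Log2 values of TRIM24, TRIM33, TRIM28 and TRIM66 by array (points), with group mean and SD (bars) and a cross for array D4. TRIM24 is highest at 6 h of BRD8518, TRIM33 at 24 h, TRIM66 is lowest at 6 h, and D4 lies below its group for TRIM24 and TRIM33 and above it for TRIM28.

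Of a list of 10 members linked to interferon, retroviral restriction or RNA sensing, 8 were measured. The list is not complete, as TRIM65, which fell at 6 h of BRD8518, is counted with the PRY-SPRY members below. Counts in this list and those that follow stand beside shares over all genes of 5.62% higher and 8.86% lower at 6 h of BRD8518, 12.1% and 15.6% at 24 h of BRD8518, 2.03% and 0.813% at 1 h of OSM, and 4.6% and 5.65% at 24 h of OSM. At 6 h of BRD8518, 3 of the 8 fell (TRIM25, TRIM26 and TRIM56) and 0 rose, with a median of -0.25. At 24 h 1 rose (TRIM38) and 2 fell (TRIM14 and TRIM26). With OSM 1 rose at 1 h (TRIM21), and at 24 h 1 rose (TRIM38) and 1 fell (TRIM26). TRIM25 differed by 0.02 ± 0.06 after 24 h of BRD8518 (adjusted p = 0.86), when its 3 arrays read 9.80, 9.81 and 9.76 beside 9.78, 9.70 and 9.81 with DMSO, so the levels overlapped again. TRIM5 and TRIM22 passed in none of the 5 comparisons in the fit of all arrays.

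Other members were grouped by their C-terminal domain. Of 18 measured PRY-SPRY members outside the lists above, 2 rose and 6 fell at 6 h of BRD8518 (median -0.15), beside 5.62% and 8.86% of all genes, and 1 rose and 2 fell at 24 h (median -0.073). With OSM, 2 rose and 1 fell at 1 h and 1 each way at 24 h. Of 8 members with no named C-terminal domain, TRIM52 fell at 6 h of BRD8518, TRIM8 and TRIM44 rose at 24 h, TRIM40 rose at 1 h of OSM and TRIM61 fell at 24 h of OSM. Of 4 with a MATH, filamin or transmembrane part, TRIM37 and TRIM45 fell at both later times of BRD8518, TRIM13 rose at 24 h, and TRIM45 fell at 24 h of OSM. Of 3 with NHL repeats, TRIM32 fell at 6 h of BRD8518. Among the 6 COS-box members measured under a TRIM symbol and the 8 of the recently duplicated testis cluster, 0 passed in any comparison with DMSO in the fit of all arrays, and without D4 TRIM36 of the first list rose with BRD8518 at 6 h and 24 h. TRIM42 and the read-through transcript TRIM6-TRIM34, in no list, did not pass.

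BRD8518 and OSM were also set against each other at matched times. At 1 h, 0 members were higher and 4 lower with BRD8518 than with OSM, beside 2.34% of all genes (0.847% higher and 1.5% lower). These were TRIM40 (-1.17 ± 0.09), TRIM15 (-0.95 ± 0.07), TRIM50 (-0.51 ± 0.09) and TRIM25 (-0.25 ± 0.06), of which TRIM25 lost its call without any OSM array or BRD8518 replicate 1 or 3 (-0.28 to -0.22). At 24 h, 5 were higher and 2 lower, beside 23.2% (10.9% higher and 12.3% lower). TRIM33 (0.82 ± 0.15), TRIM8 (0.51 ± 0.13), TRIM61 (0.45 ± 0.08), TRIM13 (0.28 ± 0.06) and TRIM25 (0.19 ± 0.06) were higher with BRD8518, and TRIM50 (-0.996 ± 0.09) and TRIM40 (-0.36 ± 0.09) lower. TRIM25 lost this call without OSM replicate 2 or 3 or any BRD8518 array (0.16 to 0.20). TRIM50 was thus called higher than DMSO with OSM and lower with BRD8518 at the same time. The OSM call was weak, as given above, and was lost in most alternatives. Without D4 the counts were 7 at 1 h, beside 4.81%, and 15 at 24 h, beside 31.9%. The 2 treatments share their DMSO arrays, so for TRIM26, TRIM10 and TRIM45, which fell at 24 h of both, each difference is given on its own above.

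Family members whose symbol is not TRIM and a digit were 8, all measured, among them MID1 and MID2, the older TRIM18 and TRIM1, which also carry a COS box and were called in 0 comparisons with DMSO. PML, the scaffold of nuclear bodies, fell at 6 h of BRD8518 (-0.38 ± 0.11, adjusted p = 0.0245), a call lost without BRD8518 replicate 2 (-0.28). RNF135, a RIG-I ligase, rose at 24 h of OSM (0.38 ± 0.11, adjusted p = 0.0222), a call lost without OSM replicate 1 or 2 or DMSO replicate 1 or 3 (0.34 to 0.37). The other members of this list were not called against DMSO.

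The enzymes upstream of a TRIM ligase moved in part. UBB, a polyubiquitin gene, fell with BRD8518 at 6 h (-0.63 ± 0.12, adjusted p = 6.53e-04) and 24 h (-0.60 ± 0.11, adjusted p = 2.61e-04), and read 7.58 ± 0.17 (SD, n = 3) at 24 h against 8.18 ± 0.05 (n = 3) with DMSO. UBA6, an E1 enzyme, rose at 24 h (0.32 ± 0.12), a call lost without any BRD8518 array or DMSO replicate 1 or 3 (0.25 to 0.35). Of 9 measured E2 genes of 15 listed, UBE2L6, the E2 of the ubiquitin-like ISG15, rose at 1 h of OSM (0.62 ± 0.11, adjusted p = 0.00102) and at 24 h of OSM (0.34 ± 0.11, adjusted p = 0.0484, lost without OSM replicate 1 or 3 or any DMSO array, 0.28 to 0.36) and fell at 24 h of BRD8518 (-0.77 ± 0.11, adjusted p = 6.78e-06). UBE2V2 fell with BRD8518 at 6 h (-0.37 ± 0.09, lost without BRD8518 replicate 2, -0.21) and 24 h (-0.41 ± 0.08). The other 7 E2 genes were not called against DMSO.

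Of 11 corepressor partners of TRIM28 listed, 9 were measured. At 24 h of BRD8518, 4 of the 9 fell and 0 rose, with a median of -0.17 over the list, beside 15.6% of all genes lower and a median of -0.0049. TRIM28 itself was not called. The 3 heterochromatin protein 1 genes CBX1 (-0.56 ± 0.10), CBX3 (-0.60 ± 0.13) and CBX5 (-0.56 ± 0.16) fell, and HDAC1, a histone deacetylase, fell slightly (-0.17 ± 0.06, adjusted p = 0.049, lost in 7 of 15 alternatives). CBX5 lost its call without DMSO replicate 2 (-0.47), and HDAC1 without BRD8518 replicate 1 or 3 or DMSO replicate 2 or 3 (-0.18 to -0.13). At 6 h MORC3, which keeps retroelements silent, rose (0.76 ± 0.17), a call lost without BRD8518 replicate 1 (0.69). In the OSM comparisons 0 of the 9 were called.

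Of 22 symbols of the RIG-I and interferon axis, an older symbol of RIGI among them, 15 were measured. IRF9, the DNA-binding part of ISGF3, rose at 1 h of OSM (1.23 ± 0.08, adjusted p = 6.39e-10), 24 h of OSM (0.69 ± 0.08) and 24 h of BRD8518 (0.31 ± 0.08). RIGI, the RNA sensor that TRIM25 modifies, rose with OSM at 1 h (0.69 ± 0.10) and 24 h (0.43 ± 0.10) and was not called with BRD8518. IFIH1, which encodes MDA5, the sensor that TRIM65 modifies, fell at 24 h of BRD8518, from 6.03 ± 0.06 with DMSO to 4.73 ± 0.11 (SD, n = 3 each; -1.30 ± 0.12, adjusted p = 1.65e-08), and at 24 h of OSM (-0.49 ± 0.12). TRIM65 itself was not called at 24 h of BRD8518 in the fit of all arrays (-0.25 ± 0.19, adjusted p = 0.40) and was without D4 (-0.25 ± 0.09). IFIT3, an interferon-induced protein, fell at 24 h of BRD8518 (-0.94 ± 0.19). DHX58 fell at 24 h of BRD8518 (-0.26 ± 0.09), as did TAB3 (-0.36 ± 0.12), whose turnover TRIM38 regulates. TAB3 also fell at 24 h of OSM (-0.41 ± 0.12). Each of these calls was fragile. DHX58 lost its call without BRD8518 or DMSO replicate 1 or 2 (-0.27 to -0.24), TAB3 with BRD8518 without its replicate 2 or 3 or DMSO replicate 1 or 2 (-0.35 to -0.30), and TAB3 with OSM without any OSM array or DMSO replicate 1 or 2 (-0.42 to -0.35).

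Between the DMSO arrays of 1 h, 6 h and 24 h, 0 members passed in limma's test, beside 0.00672% of all genes for 6 h against 1 h and 0% for the others, and 5, 3 and 3 members had an unadjusted p under 0.05 (6 h against 1 h, 24 h against 1 h and 24 h against 6 h). Over the 8 groups, TRIM50 had the widest range of group means (1.39, from 5.38 after 24 h of BRD8518 to 6.77 after 1 h of OSM), followed by TRIM40 (1.38), TRIM38 (1.37) and TRIM15 (1.17), against pooled SDs of 0.10, 0.10, 0.22 and 0.071. Some probe sets may read more than their gene. TRIM50 has the near-identical copies TRIM73 and TRIM74. TRIM74 has a probe set of its own, which was called in 0 comparisons with DMSO and differed by -0.24 ± 0.14 at 24 h of BRD8518 and 0.19 ± 0.14 at 1 h of OSM. How far the TRIM50 probe set also reads its copies was not tested. The annotation places TRIM13 over DLEU2 and KCNRG, TRIM66 over RPL27A, TRIM14 over NANS, TRIM61 over FAM218A and TRIM62 over AZIN2, and how far these probe sets read both genes of a pair was not tested.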

How the data were processed

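The authors deposited log2 values from 24 arrays. Per the submitters' processing notes, RMA and oligo were used, with versions and build not given here. These values were taken as they stood (53617 probe sets, 0.913 to 13.7, array medians 4.89 to 4.95). The platform table named 1 symbol for 16098 probe sets, 0 had several and 37519 stayed unnamed. All 16098 were found in the RefSeq gene table. Of a gene's probe sets, the one with the highest mean was kept.

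All 24 arrays were fitted with limma 3.58.1 in R 4.3.3, 1 mean per group, equal weights, Benjamini-Hochberg adjustment over 14884 genes, threshold 0.05. No gene was filtered. Leaving out D4 refits every contrast. The number of arrays limits the precision, and RMA values carry no detection calls. Overlap of arrays was looked at for members only, with no share over all genes, and is a description. The fit was tested on simulated data. Promoter windows are RefSeq's (GRCh38.p14), searched in Python 3.11, and figures were drawn with matplotlib 3.10.9. A member is named if past the threshold, up to 10 each way against DMSO and 5 elsewhere, with TRIM28, TRIM24, TRIM33, TRIM21, TRIM25, TRIM5 and those highest and lowest in level. Members and lists were chosen with earlier results of these data known.

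Alternatives were averaging the probe sets of a gene, a filter at the median level, centring, quantile normalization, trend and robust moderation, array weights, fitting only the groups compared, the position letter as a random block, and leaving out each array.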

Additional observations from a re-analysis of the deposited data

Results flagged for a closer look

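In the 4 DMSO 6 h arrays, 1 array lay apart from the other 3, by its gap relative to the range, for 8 of 29 members examined. Chance gives about 1 in 20 for independent groups. These members were called or named beforehand and share the same arrays, so that rate is no test here. A gap can be small in log2, as for TRIM25 (D4 at -0.05 from the mean of the others), while TRIM38 (-0.98) was not marked. In 7 of the 8 members the array was replicate 2 (D4). It was low for TRIM24 (9.94, others 10.64 to 10.70), TRIM33 (9.25, others 10.11 to 10.13), TRIM5 (5.75, others 6.58 to 6.68) and TRIM25 (9.68, others 9.73 to 9.74). It was high for TRIM28 (11.08, others 10.63 to 10.70), TRIM65 (8.27, others 7.12 to 7.28) and TRIM8 (9.50, others 8.75 to 8.83). For TRIM50 it was replicate 4 (5.91, others 6.08 to 6.11).

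The BRD8518 effect differed between 24 h and 6 h, by a test of that difference, for TRIM62 (0.74), TRIM8 (0.74), TRIM66 (0.73), TRIM56 (0.63), TRIM47 (0.61), TRIM25 (0.58), TRIM27 (0.52), TRIM41 (0.43) and TRIM13 (0.43), all higher at 24 h. It was lower at 24 h for TRIM50 (-1.04), TRIM24 (-0.80) and TRIM15 (-0.59).

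Between 24 h and 1 h the BRD8518 effect differed for TRIM8 (0.79), TRIM33 (0.72), TRIM13 (0.43), TRIM50 (-1.01), TRIM10 (-0.55), TRIM45 (-0.49), TRIM26 (-0.38) and TRIM14 (-0.35). The OSM effect differed between 24 h and 1 h for TRIM40 (-1.16), TRIM15 (-1.10) and TRIM50 (-0.53). The cause of these differences was not tested.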

How the results depend on the processing

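Of 75 member calls, over all comparisons, 42 were kept in every alternative that tested the member, 33 were lost in at least 1 and 0 changed sign. The filter at the median level left some called members untested, TRIM40, TRIM10 and TRIM45 among them, and this does not count as a loss. With array weights the counts of members called were 1 for BRD8518 at 1 h, 19 for BRD8518 at 24 h, 9 and 12 for OSM at 1 h and 24 h, 8 and 18 for BRD8518 against OSM at 1 h and 24 h, 14 for the BRD8518 effect at 24 h against 1 h and 8 for the OSM effect at 24 h against 1 h. In fits of the compared groups alone they were 4 for BRD8518 at 6 h, 12 for BRD8518 against OSM at 24 h and 6 for the OSM effect between times. Among genes at or above the median level, 3 members were called for OSM at 1 h, since fewer members were tested. Shares over all genes were worked out only for the fits with and without D4. A count under any other setting thus shows no shift particular to the family.

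Leaving out 1 array of the compared groups, or D4, gave 0 for BRD8518 at 1 h, 11 to 24 at 6 h and 11 to 18 at 24 h, 3 to 8 for OSM at 1 h and 4 to 12 at 24 h, 3 to 7 and 6 to 15 for BRD8518 against OSM at 1 h and 24 h, 11 to 18 for the BRD8518 effect at 24 h against 6 h, 6 to 14 against 1 h, 2 to 6 for the OSM effect between times, and 0 for each comparison of DMSO times. The highest value of each range above 0 came from the fit without D4. In that fit more of all genes were called too, 35.7% against 27.7% for BRD8518 at 24 h. Where a group of 2 loses an array, the lone array is assumed to vary like the other groups.

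Averaging probe sets gave 7 members for OSM at 24 h, with TRIM40 added. The letter of the position code as a random block (consensus correlation -0.0853) moved no count by more than 1.5 times. Since the letter is largely tied to time, that refit could hardly test for an effect of the letter. No paired analysis was possible because the labels carry no replicate numbers. Signal over background could not be judged, since the values carry no detection calls.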
